A study of Mus musculus with 12 samples.

Results

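Genes of Ras activation, the ERK kinase cascade and its inhibitors were followed in mouse thymocytes with and without the microRNA pair miR-181a/b-1. The 8 genes were taken by symbol from a list: the Ras exchange factors Rasgrp1 and Sos1, the Ras protein gene Nras, the kinase genes Map2k1 (MEK1) and Mapk3 (ERK1), and the inhibitor genes Spry1, Spry2 and Spred1. All 8 were among the 55335 gene rows of the count tables, and all 8 had enough reads to be tested in both assays. RNA-seq and ribosome footprinting, which sequences the mRNA fragments that ribosomes shield from nuclease, were done on thymocytes of 6-week-old mice, with cycloheximide in the collection buffer to stall ribosomes. There were 3 libraries of each assay labelled wild type (WT) and 3 labelled miR-181a/b-1 knockout (KO), 12 in all; the sources used here do not give strain, sex or how the knockout was made, beyond the genotype name. The series design names 3 mice of each genotype and does not tie a footprint library to the RNA-seq library of the same animal.

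In a thymocyte, a T cell receptor that binds its ligand leads to diacylglycerol in the membrane, which recruits RasGRP1, and to an adaptor complex that brings SOS1 to Ras. Both exchange factors load Ras with GTP, and Ras-GTP starts the chain of RAF, MEK and ERK kinases. ERK then switches on early genes such as Egr1, and Sprouty and Spred proteins limit the pathway at or above RAF. The strength of ERK signalling is known to bear on positive and negative selection in the thymus, and miR-181a is known for setting how strongly thymocytes respond to their receptor.

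The mature microRNAs of the deleted pair are shown because the KO is defined by them. Both were read from RefSeq (GRCm38.p6), 5′ to 3′, with bases 2 to 8, the seed that pairs with target mRNAs, in capitals.
mmu-miR-181a-5p: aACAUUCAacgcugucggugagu
mmu-miR-181b-5p: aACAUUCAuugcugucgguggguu
The first lies at chr1:137966468-137966490 and the second at chr1:137966650-137966673, both on the plus strand, and both carry the same seed. Matches to this seed in the transcripts of the 8 genes were not searched for, since transcript sequences were not used here.

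Reads in genes numbered 4479182 to 8180286 per RNA-seq library and 4069968 to 17859770 per footprint library. The lowest was KO replicate 2 in RNA-seq and KO replicate 3 in footprints. The Mir181a-1 row stood at 148 ± 16.8 CPM in WT footprints and at 0.828 ± 0.317 CPM in KO (SD, n = 3), where CPM is counts per TMM-scaled library total (edgeR FDR 2.24e-05). In RNA-seq the row had 57 reads in WT and 67 in KO and did not fall (edgeR FDR 0.756), so it checks the labels of the footprint libraries only. RNA-seq directions below are therefore by label. The 9 thymocyte markers summed to 11700 to 14000 CPM in every RNA-seq library. Sums were 12.2 to 23.1 CPM for 5 B cell markers and 14.2 to 22.2 for 5 markers of thymic epithelium. The fibroblast markers gave 33.6 to 42.7 CPM and the myeloid or dendritic ones 58.5 to 68.2. Red cell markers gave 46.6 to 90.8 CPM and endothelial ones 170 to 213. No marker gene was at 0 over all libraries of an assay. In such bulk samples fewer cells of a type and less RNA per cell cannot be told apart.

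A property of the counts bears on every test. The authors named them adjusted. Across 9704 genes in RNA-seq, the deviations of same-numbered WT and KO libraries from their group means correlated at -0.98 to -0.95, and across 8612 genes in footprints at -0.99 (genes are no independent replicates, so this only describes the tables). The 8 genes carry it too: the order of replicates in KO was the reverse of that in WT for 6 of 8 genes in RNA-seq and 7 of 8 in footprints, against 90.5% and 90.4% of all genes tested. The spread within a genotype therefore need not measure the spread between mice. Each call below therefore has a second FDR beside it, from a fit with a block, which is the replicate number entered as a further factor.

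Few of the 8 genes were called, and the calls were of small changes, from 0.19 to 0.25 on the log2 scale. In RNA-seq 1 of 8 was called higher in KO at an adjusted p (FDR) under 0.05 in edgeR's quasi-likelihood test, against 6.91% of all 13652 genes tested in either direction. In footprints 2 of 8 were called, both higher, against 17.6% of 13509 genes (9.25% for the higher direction). With the block none of the 8 was called in either assay, where 0.806% and 3.02% of all genes were. DESeq2 called none in RNA-seq and 1 in footprints, and its share of calls over all genes was not counted. At an unadjusted p under 0.05 without the block lay 2 of 8 genes in RNA-seq and 3 of 8 in footprints, against 23.8% and 33.1% of all genes. The median log2 fold change of the 8 was 0.09 in RNA-seq and 0.14 in footprints, beside medians of -0.00053 and -0.0090 over all genes. Fold changes are given throughout as KO minus WT on the log2 scale.

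**Figure D1:**
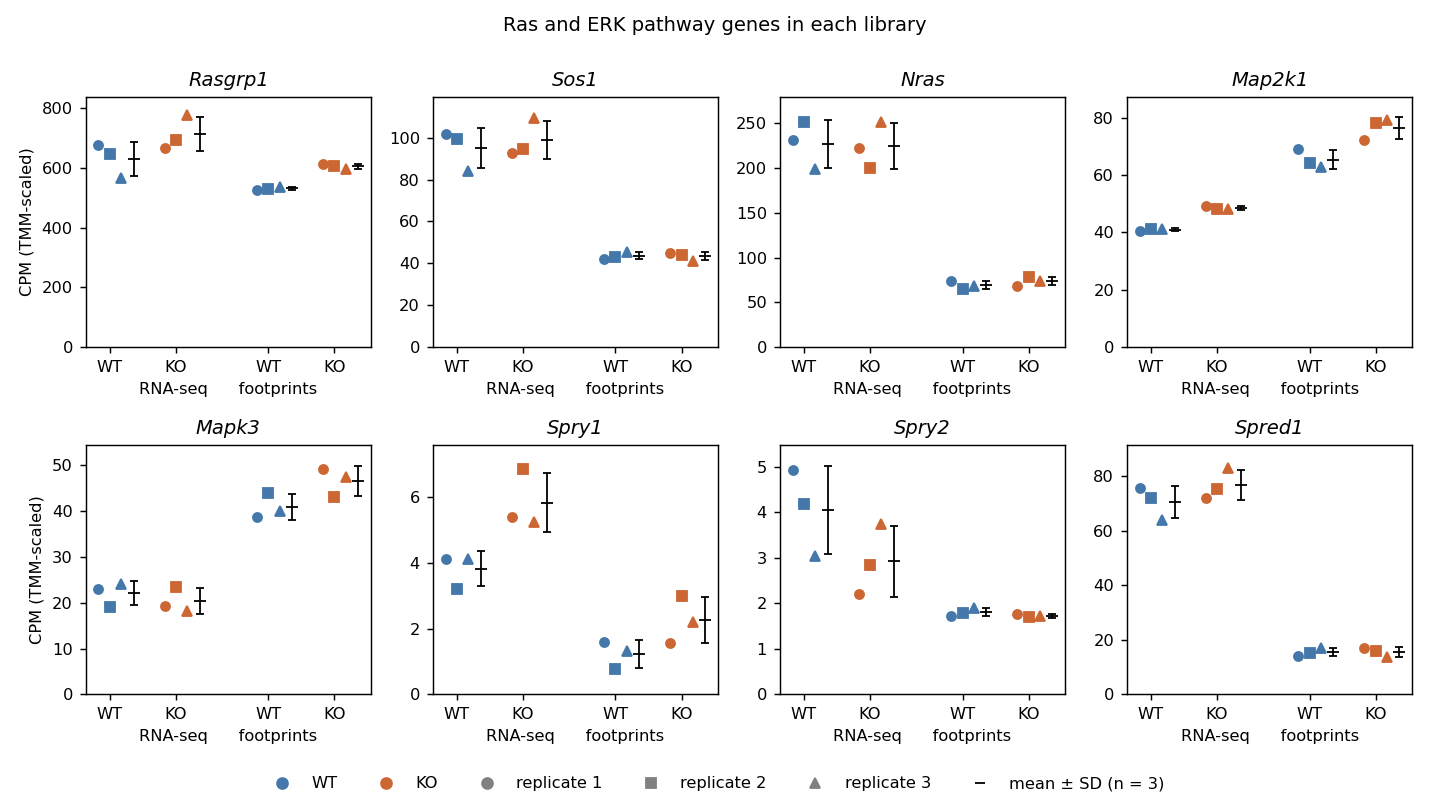
TMM-scaled CPM of the 8 genes in each of the 12 libraries (linear axes from 0, 1 per gene), with blue for WT, orange for KO, the marker shape for the replicate number and a black bar for the mean ± SD of 3 libraries. In footprints the KO libraries of Rasgrp1 and Map2k1 lie above all WT libraries, and in RNA-seq those of Map2k1 and Spry1 do. The same held for 18.5% of all genes in footprints and 15.5% in RNA-seq.

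Rasgrp1 encodes the diacylglycerol-responsive exchange factor that is the main Ras activator of developing T cells. Its footprint level (ENSMUSG00000027347.18) was 527, 531 and 537 CPM in WT replicates 1 to 3 and 613, 607 and 597 CPM in KO. All KO libraries lay above those of WT, which held for 18.5% of all genes in footprints in this direction. The gap between the groups was larger than the range within either, but that range need not measure the spread between mice. The change was 0.19 (SE 0.03, edgeR FDR 0.0107), from 532 ± 5.27 to 606 ± 7.96 CPM (SD, n = 3). With the block the change was 0.19 (SE 0.08) and the call was lost (FDR 0.292, unadjusted p 0.0439). The call was also lost with no low-count filter (FDR 0.0541), in the joint fit of 12 libraries (0.107) and without KO replicate 1 or KO replicate 2, where the FDR reached at most 0.0525. In the authors' deposited table Rasgrp1 is listed as significant in footprints, with a log2 fold change of 0.18 and an adjusted p of 0.00245. Of all genes tested in footprints, 54.8% had a change as small or smaller.

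In RNA-seq, Rasgrp1 stood at 677, 648 and 567 CPM in WT and 667, 695 and 778 CPM in KO. WT replicate 3 was the lowest of the 6 and KO replicate 3 the highest, and the groups overlapped. The RNA difference was 0.18 (SE 0.09, edgeR FDR 0.296), so close in size to that in footprints that the change of footprints beyond RNA was 0.01 (SE 0.10, edgeR interaction FDR 0.987).

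Sos1 encodes the exchange factor that the adaptor GRB2 brings to the membrane and that Ras-GTP can further activate. Its footprints (ENSMUSG00000024241.7) were 42.3, 43.0 and 45.4 CPM in WT and 44.8, 43.9 and 41.2 CPM in KO. Its RNA was 102, 99.5 and 84.2 CPM in WT and 92.7, 94.5 and 109 CPM in KO. Values of the genotypes were interleaved in both assays, and the differences were 0.0043 (SE 0.05) in footprints and 0.06 (SE 0.10) in RNA-seq, with edgeR FDR of 0.969 and 0.779. Sos1 overlaps Arhgef33 and 2 other gene models in RefSeq, so its counts are less certain there.

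Nras encodes one of the Ras GTPases that these factors load. Footprints of Nras (ENSMUSG00000027852.14) were 73.7, 65.1 and 68.3 CPM in WT against 68.7, 77.9 and 74.1 CPM in KO. Its RNA was 232, 252 and 199 CPM in WT against 223, 200 and 252 CPM in KO. A pseudogene row, Nras-ps2, could share reads with it. Neither assay separated the genotypes: the differences were 0.09 (SE 0.07, edgeR FDR 0.396) in footprints and -0.01 (SE 0.12, edgeR FDR 0.966) in RNA-seq.

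Map2k1, which encodes the kinase MEK1 that phosphorylates ERK, was the 1 gene of the 8 called in both assays. In RNA-seq (ENSMUSG00000004936.8) it had 40.4, 41.3 and 41.2 CPM in WT and 49.3, 48.3 and 48.2 CPM in KO. In footprints it had 69.2, 64.1 and 63.0 CPM in WT and 72.3, 78.1 and 79.3 CPM in KO. The lowest KO library lay above the highest WT library each time, which held for 15.5% of all genes in RNA-seq and 18.5% in footprints in this direction. The rise was 0.25 (SE 0.05, edgeR FDR 0.0445) in RNA-seq and 0.22 (SE 0.06, edgeR FDR 0.0399) in footprints.

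Both Map2k1 calls sat close to the threshold. With the block the changes stayed at 0.25 (SE 0.15) and 0.22 (SE 0.09) and the FDR became 0.658 and 0.282. DESeq2 did not call Map2k1 (adjusted p 0.454 and 0.116), nor did edgeR with no low-count filter (0.134 and 0.0538). Leaving out any 1 of the 6 RNA-seq libraries ended the RNA call, and leaving out replicate 2 or 3 of either genotype ended the footprint call. The authors' deposited table lists Map2k1 as not significant in both assays. Map2k1 overlaps Uchl4 in RefSeq. The footprint change beyond that of RNA was -0.03 (SE 0.08, edgeR interaction FDR 0.932).

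Mapk3 encodes ERK1, a substrate of MEK1 in the last step of the cascade. In RNA-seq (ENSMUSG00000063065.13) it had 23.1, 19.1 and 24.1 CPM in WT and 19.3, 23.4 and 18.2 CPM in KO. In footprints it had 38.5, 43.9 and 39.9 CPM in WT and 49.2, 42.9 and 47.4 CPM in KO. KO replicate 2 fell among the WT footprint values, and in RNA-seq the genotypes were interleaved. The differences had opposite signs, -0.14 (SE 0.13, edgeR FDR 0.575) in RNA-seq and 0.18 (SE 0.08, edgeR FDR 0.153) in footprints. Their gap of 0.32 (SE 0.15) did not pass the interaction test (edgeR FDR 0.370, unadjusted p 0.0553).

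Among the inhibitors, Spry1 and Spry2 encode Sprouty proteins, induced by ERK signalling and acting against it, and Spred1 encodes a related protein that works with the Ras GTPase-activating protein neurofibromin. Both Sprouty genes had few reads. Spry1 (ENSMUSG00000037211.12) had 26, 23 and 30 RNA-seq reads in WT and 37, 29 and 42 in KO, or 4.13, 3.21 and 4.13 CPM against 5.41, 6.87 and 5.24 CPM. The KO libraries lay above those of WT, as for 15.5% of all genes in RNA-seq. The difference of 0.58 (SE 0.16) was not called (edgeR FDR 0.0919, with the block 0.590).

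In footprints Spry1 had 28, 14 and 14 reads in WT and 17, 46 and 9 in KO. Scaled to depth these were 1.60, 0.783 and 1.33 CPM in WT and 1.58, 2.99 and 2.21 CPM in KO, with KO replicate 1 just below WT replicate 1. The difference of 0.94 (SE 0.35) was the largest in size of the 8 genes in either assay and was not called (edgeR FDR 0.114, with the block 0.374). It was called in the joint fit of 12 libraries alone (FDR 0.0467). Without 1 library it ranged from 0.52 to 1.24.

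Spry2 (ENSMUSG00000022114.5) had 31, 30 and 22 RNA-seq reads in WT and 15, 12 and 30 in KO. Its RNA-seq levels were 4.93, 4.18 and 3.03 CPM in WT and 2.19, 2.84 and 3.74 CPM in KO, and the genotypes overlapped (-0.43, SE 0.26, edgeR FDR 0.380). Footprints of Spry2 held between 1.69 and 1.90 CPM in all 6 libraries, from 82 reads in WT and 52 in KO (-0.06, SE 0.26, edgeR FDR 0.909). Opposite signs for Spry1 and Spry2 in RNA-seq thus rest on 79 and 108 reads for Spry1, on 83 and 57 for Spry2 (WT and KO) and on differences that were not called.

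Spred1 (ENSMUSG00000027351.14) was better covered. It had 75.5, 72.0 and 64.1 CPM in WT and 71.8, 75.3 and 82.8 CPM in KO in RNA-seq. In footprints it had 14.2, 15.2 and 17.1 CPM in WT and 17.1, 15.9 and 13.8 CPM in KO. The values overlapped in both assays, and the differences of 0.12 (SE 0.09) and 0.05 (SE 0.10) were not called (edgeR FDR 0.446 and 0.779).

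**Figure D2:**
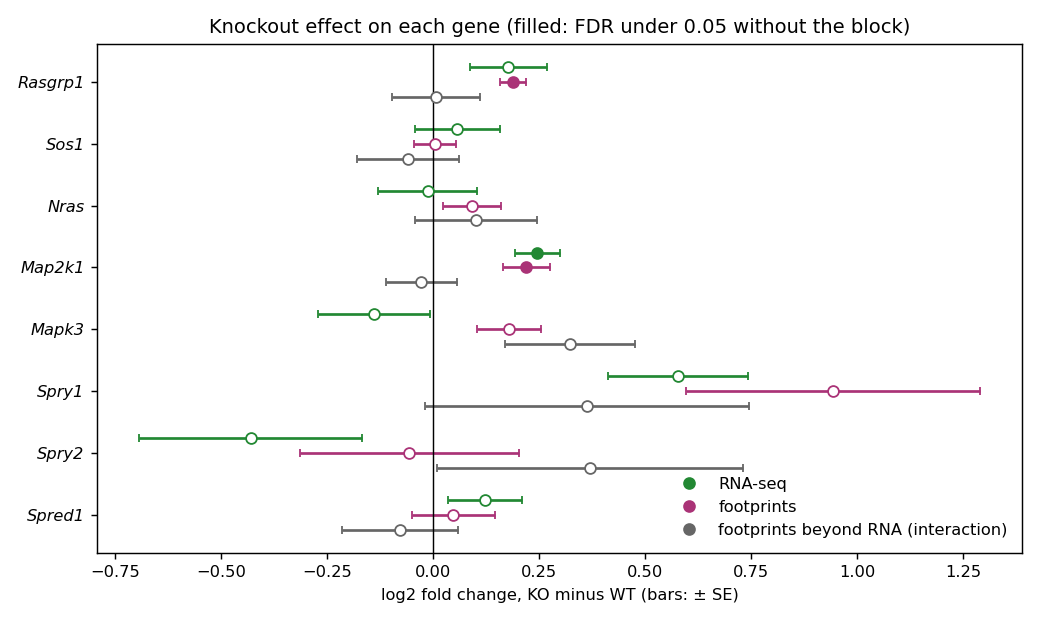
Log2 fold change (KO minus WT, horizontal axis) of the 8 genes in RNA-seq (green), in footprints (purple) and in footprints beyond RNA (grey), with bars of ± 1 SE and filled points for an FDR under 0.05 without the block. The 3 filled points are Map2k1 in both assays and Rasgrp1 in footprints, and the widest bars belong to Spry1 and Spry2.

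A change of footprints beyond RNA was tested in a fit of the 12 libraries with a term for genotype by assay. None of the 8 genes passed (edgeR FDR between 0.370 for Mapk3 and 0.987 for Rasgrp1), none had an unadjusted p under 0.05, and DESeq2 called none. Over all 11854 genes 0.211% were called and 14% had an unadjusted p under 0.05, and with the block within each assay 0.0169% were called, none of the 8 among them. The interaction ranged from -0.08 for Spred1 to 0.37 for Spry2.

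The 8 genes did differ in how many footprints they had for their RNA. The log2 ratio of footprint CPM to RNA CPM is taken within a gene. RNA reads cover untranslated regions and footprints mostly do not, so the ratio, and the order of genes by it, also depends on the coding share of the transcript, which was not measured. In WT the order from low to high was Spred1 (-2.15, SE 0.10), Nras (-1.71, SE 0.11), Spry1 (-1.34, SE 0.24), Sos1 (-1.11, SE 0.09), Spry2 (-0.96, SE 0.18), Rasgrp1 (-0.24, SE 0.08), Map2k1 (0.67, SE 0.04) and Mapk3 (0.87, SE 0.11). The ± 1 SE ranges of Spry1, Sos1 and Spry2 overlapped, so these 3 are not separated in this order. Against all 11854 genes, whose median was -0.19, Spred1 stood at the 7.52 percentile and Nras at the 12. Map2k1 stood at the 75 percentile and Mapk3 at the 80.4, so both kinase genes had more footprints per RNA read than Ras, Sos1 or the 3 inhibitors.

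**Figure D3:**
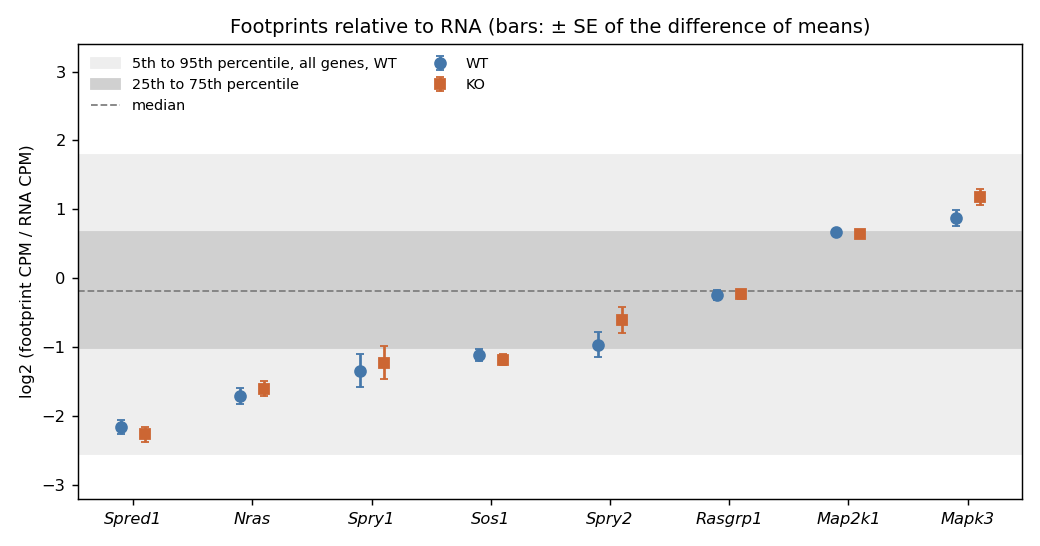
Log2 ratio of footprint CPM to RNA CPM (vertical axis) of the 8 genes in WT (blue circles) and KO (orange squares), with bars of ± 1 SE of the difference of the 2 assay means (n = 3 libraries each). Grey bands give the 5th to 95th and 25th to 75th percentiles of all genes in WT and the dashed line their median; the order of the genes runs from Spred1 at -2.15 to Mapk3 at 0.87 in WT.

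The order was kept in KO for Spred1 and Nras at the low end (-2.27 and -1.60) and for Map2k1 and Mapk3 at the high end (0.65 and 1.18). Between them lay Spry1 (-1.22, SE 0.24), Sos1 (-1.18, SE 0.08), Spry2 (-0.60, SE 0.19) and Rasgrp1 (-0.23, SE 0.07). The ± 1 SE ranges of Spry1 and Sos1 overlapped in KO, so these are not separated there. CPM levels are not compared between genes here, since transcript lengths were not used.

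By the profile over the 12 libraries, with log2 CPM centred within each assay, the 2 genes most like Rasgrp1 among 8062 were Ino80d (Pearson r 0.990) and Pdlim5 (r 0.987). The 2 most like Map2k1 were Pfkfb3 (r 0.985) and Edaradd (r 0.977). These are descriptions over 12 libraries that share the mirrored replicate order, and 203 genes had r over 0.9 to Rasgrp1 and 148 to Map2k1.

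Around the 8 genes, a wider list of 71 genes of the same pathway was read, from adaptors to the genes that ERK switches on. Of these, 70 had a row and Spry3 had none by this symbol. In RNA-seq 63 were tested: 3 were called higher and 3 lower in KO, against 3.48% and 3.43% of all genes. In footprints 65 were tested: 14 were called higher and 0 lower, against 9.25% and 8.34% of all genes. With the block 6 of these 14 were called in footprints, against 1.89% of all genes in that direction, and none in RNA-seq. Of the 6 RNA-seq calls, those of Dab2ip, Elk3, Dusp7, Hras and Pea15a were each lost without any 1 of the 6 libraries, and that of Rasgrp4 was not. The median log2 fold change of the 65 in footprints was 0.09, and 46 were above 0, beside 48.4% of all genes. The authors' deposited table lists 11 of 62 genes of the list as significantly higher in footprints and 0 as lower, where it lists 711 and 498 of all 11369 genes. For RNA-seq the authors' deposited table lists 2 of 63 as higher and 1 as lower, where it lists 327 and 221 of all 13301 genes.

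**Figure D4:**
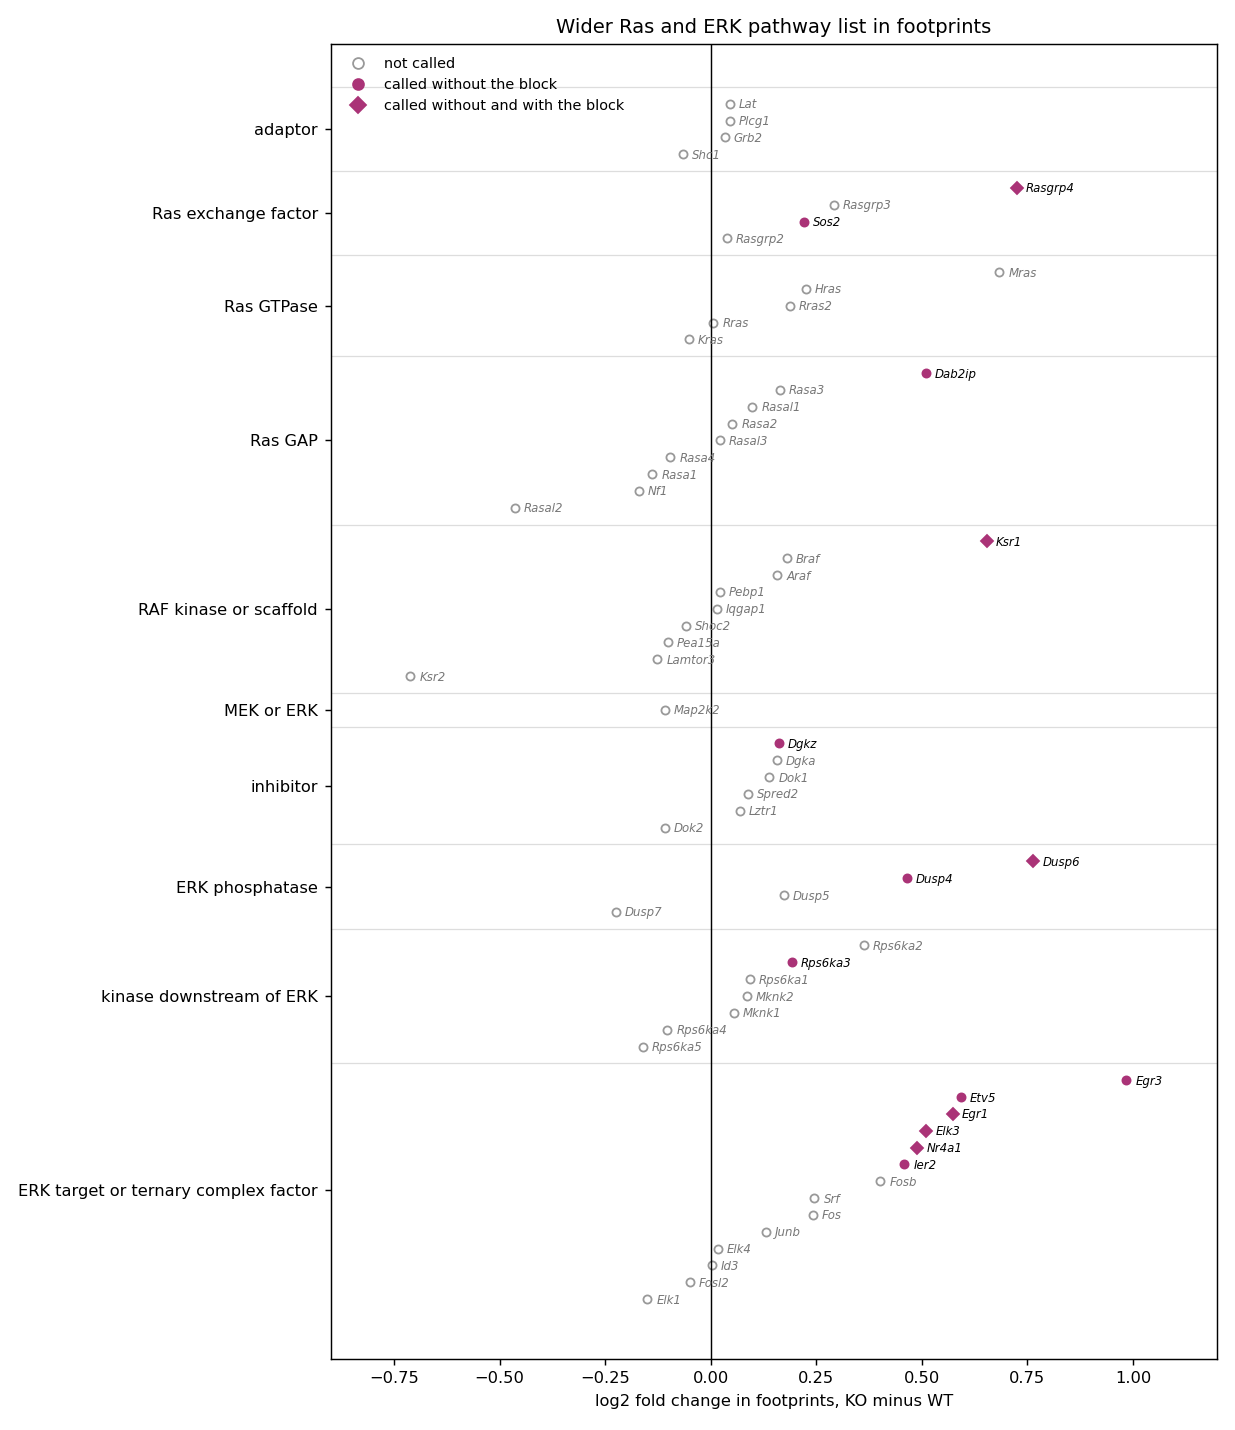
Log2 fold change in footprints (KO minus WT, horizontal axis) of 63 tested genes of the wider list, 1 row per gene grouped by role. Filled purple marks are the 14 genes called without the block, diamonds the 6 also called with it (Rasgrp4, Ksr1, Dusp6, Egr1, Nr4a1 and Elk3), and open grey circles were not called.

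Upstream of Ras, the adaptor genes Lat, Grb2, Plcg1 and Shc1 were not called in either assay, with footprint differences from -0.07 to 0.05. Rasgrp4, an exchange factor of the same family as Rasgrp1 and known from mast cells, had 15.1, 13.4 and 13.7 CPM of footprints in WT and 21.7, 24.4 and 23.8 CPM in KO. It rose by 0.72 in footprints (SE 0.08, edgeR FDR 0.00257, with the block 0.0258) and by 0.80 in RNA-seq (edgeR FDR 0.00407, with the block 0.0618). Sos2, the paralogue of Sos1, was called in footprints at 0.22 (edgeR FDR 0.0427, with the block 0.444), a call lost without any 1 of the 6 footprint libraries. Its RNA was 35.1, 43.9 and 32.5 CPM in WT and 58.2, 44.5 and 62.0 CPM in KO, a difference of 0.58 that was not called (edgeR FDR 0.0851). The authors' deposited table lists Sos2 as significantly higher in RNA-seq (0.48, adjusted p 0.0312) and not in footprints. Rasgrp4 overlaps Fam98c in RefSeq.

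Among Ras proteins, Hras and not Nras was called in RNA-seq. Hras fell from 21.9, 19.0 and 22.5 CPM in WT to 13.9, 16.3 and 13.4 CPM in the libraries labelled KO (-0.56, SE 0.11, edgeR FDR 0.0360, with the block 0.334). Its footprints were 8.47, 7.55 and 7.96 CPM in WT and 8.81, 9.81 and 9.33 CPM in KO. They were higher in each KO library, as for 18.5% of all genes, and not called (0.23, edgeR FDR 0.137). The interaction for Hras was 0.78 (SE 0.15), just short of the threshold (edgeR FDR 0.0584, with the block within each assay 0.998). Whether Hras and Nras differ from each other in their response was not tested.

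Of 9 genes for Ras GTPase-activating proteins, which return Ras to its GDP form, Dab2ip alone was called. Over all genes 9.25% were called higher in footprints and 3.48% in RNA-seq, so 1 of 9 in footprints is near the share of all genes. Dab2ip rose in footprints by 0.51 (SE 0.11, edgeR FDR 0.0230) and in RNA-seq by 0.32 (edgeR FDR 0.0475), neither with the block (0.129 and 0.601). Its footprint call was lost on leaving out replicate 2 of either genotype or the third KO library. Ksr1, a scaffold that holds RAF, MEK and ERK together, had 14.1, 15.2 and 12.1 CPM of footprints in WT and 21.9, 20.2 and 25.3 CPM in KO. It rose by 0.65 (SE 0.11, edgeR FDR 0.0111, with the block 0.0491), while in RNA-seq its difference of 0.28 was not called (edgeR FDR 0.0878). Araf and Braf, which encode RAF kinases, were not called in either assay. Pea15a, whose product binds ERK and holds it in the cytoplasm, fell in RNA-seq by 0.64 on the log2 scale (edgeR FDR 0.0418, with the block 0.345) and was not called in footprints.

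Map2k2, which encodes MEK2, the partner of MEK1, had differences that were not called (-0.22 in RNA-seq and -0.11 in footprints, edgeR FDR 0.327 and 0.220). Of the other inhibitors, Dgkz, which removes the diacylglycerol that RasGRP1 needs, was called in footprints at 0.16 (edgeR FDR 0.0431, with the block 0.393), a call lost without any 1 footprint library. Spred2 was not called in either assay, and Spry4 had 8 and 13 footprint reads in WT and KO, too few to be tested.

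ERK phosphatases close a feedback loop by dephosphorylating ERK. Dusp4 rose in footprints by 0.46 (SE 0.07, edgeR FDR 0.00723, with the block 0.114) and stood at -0.04 in RNA-seq. Dusp6, the ERK-specific phosphatase of the cytoplasm, rose in footprints by 0.76 without and by 0.77 with the block (FDR 0.000665 and 0.00185). Dusp7 was called lower in RNA-seq (-0.52, edgeR FDR 0.0302, with the block 0.404), and Dusp5 was not called. Among kinases downstream of ERK, Rps6ka3, which encodes RSK2, was called in footprints at 0.19 (edgeR FDR 0.0273, with the block 0.301), a call lost without any 1 footprint library other than KO replicate 3.

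Of 17 genes that ERK switches on or that carry its signal to the promoter, 14 were tested in footprints and 6 were called higher, 3 of them also with the block, against 9.25% and 1.89% of all genes. Egr1, an early zinc finger gene driven by ERK, had 115, 108 and 86.4 CPM of footprints in WT and 138, 149 and 180 CPM in KO. All 3 KO libraries lay above all 3 of WT, as for 18.5% of all genes in footprints. The rise was 0.57 (SE 0.13, edgeR FDR 0.0319, with the block 0.0491). Nr4a1, the orphan receptor gene used as a read-out of T cell receptor signalling, had 100, 84.4 and 87.9 CPM in WT and 115, 137 and 132 CPM in KO. It rose by 0.49 (SE 0.09, edgeR FDR 0.0160, with the block 0.0438), a call lost without KO replicate 2 alone among the 6 libraries. Elk3, an Ets factor that binds with SRF, rose by 0.51 (SE 0.09, edgeR FDR 0.0147, with the block 0.0490). It overlaps Cdk17 in RefSeq. The Egr1 call was lost without replicate 2 or 3 of either genotype, at FDR up to 0.0795.

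Ier2, Etv5 and Egr3 were called in footprints without the block only. Ier2 rose by 0.46 (edgeR FDR 0.00228, with the block 0.0645) and Etv5 by 0.59 (0.0161, with the block 0.152), the latter lost without replicate 2 of either genotype. Egr3 went from 3.15, 2.63 and 2.56 CPM in WT to 4.92, 5.85 and 6.14 CPM in KO, a rise of 0.98 (SE 0.13, edgeR FDR 0.00585, with the block 0.0766).

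In RNA-seq 1 of these 6 genes was called. Egr1 RNA was 91.6, 91.8 and 71.5 CPM in WT and 94.6, 93.3 and 116 CPM in KO (0.26, edgeR FDR 0.289). Nr4a1 differed by 0.01, Ier2 by -0.06 and Egr3 by -0.11 in RNA-seq, and Elk3 was the gene called there (0.34, edgeR FDR 0.0322, with the block 0.431). Egr1, Elk3, Etv5, Nr4a1 and Ier2 did not pass the interaction test (edgeR FDR 0.206 to 0.554), so a difference between their footprint and RNA effects is not shown. Of the 14 genes of the wider list called in footprints, 10 had an RNA log2 fold change above 0, and 3 were called in RNA-seq. Over all genes 49.9% were above 0, but the 14 were picked for being higher in footprints, so that share is no baseline for them. Of the 14, Egr3 alone passed the interaction test (1.09, SE 0.18, edgeR FDR 0.0294). With the block within each assay its FDR was 0.998, and with 1 block per genotype and replicate number, shared by both assays, it was 0.0362. The labels do not say that such libraries came from 1 mouse. Over all genes 0.135% were called with a positive interaction, and 0.143% in either direction with the shared block. Picking genes by a higher footprint level also favours a positive interaction, so these shares are no baseline for Egr3 among the 14.

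Markers of thymocyte stages moved beside these genes in footprints. Of the 9 thymocyte markers 1 was called higher (Cd4) and 3 lower (Lck, Ptcra and Rag1), with the block 1 and 0. Over all genes 9.25% were called higher and 8.34% lower without the block. Cd4 rose by 0.57 (edgeR FDR 0.00335, with the block 0.0121), Il2ra, a marker of early double-negative cells, rose by 0.38 (0.00159, with the block 0.0446), and Rag1 fell by 0.30 on the log2 scale (0.00866, with the block 0.116). The double-negative list was split, since Ptcra, which also belongs to it, fell by 0.37 on the log2 scale (edgeR FDR 0.0293, with the block 0.155). Lck was called at -0.12 (edgeR FDR 0.0457, with the block 0.519). Summed over the 6 markers of double-positive cells, footprints were 16600 to 17400 CPM in WT and 15000 to 15700 CPM in KO. Over the 5 markers of double-negative cells they were 251 to 262 CPM in WT and 276 to 289 CPM in KO, and over the 6 markers of mature single-positive cells 646 to 713 and 657 to 721 CPM. B cell markers summed to 43.4 to 57.6 CPM in WT and 56.2 to 75.5 CPM in KO. The part of these shifts in the results for Rasgrp1, Map2k1 and the wider list was not tested.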

How the data were processed

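Per assay the authors deposited 1 table of gene counts in whole numbers under Ensembl IDs, named adjusted; what was adjusted is not stated in the labels. FastQC, Bowtie2 2.5.1, STAR 2.7.10a, HTSeq 2.0.3 and DESeq2 1.40.2 are named in the submitters' processing notes, without their roles; build, annotation and use of strand: not given in the sources used here. Per the labels' protocols, the Illumina TruSeq Ribo Profile kit served for library construction. Reads in genes were 27.0% to 28.5% of counted reads in RNA-seq and 72.3% to 73.1% in footprints; the 5 rows that htseq-count adds were left out. The 12 per-library columns in the authors' tables of fold changes were not used.

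Each assay was fitted with edgeR 4.0.16 in R 4.3.3 (TMM, filterByExpr with a minimum count of 10, quasi-likelihood test, Benjamini-Hochberg over all genes tested), and translation as the genotype by assay interaction. The SE is the size of the log2 fold change divided by the root of F, or by the normal deviate of p where edgeR limits p to counting noise. Ratios of footprints to RNA used a pseudocount of 0.5 CPM. Alternatives were RLE factors, DESeq2 1.42.0, no filter, a replicate block, a fit of all libraries together and leaving out each library. Fits were tested on simulated counts with larger changes than those called among the 8 genes and without mirrored replicates. Such a test cannot show how the fits behave on the deposited counts. Named genes are the 8 genes, each gene of the wider list that was called, the Mir181a-1 row and the 2 genes most like each called gene of the 8, among genes averaging 3 or more log2 CPM in both assays; others named in the text were chosen after their values were seen. The genes and lists were chosen with earlier results of these data known. Values of some genes of the wider list are not reported here, although its counts include them.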

Additional observations from a re-analysis of the deposited data

Results flagged for a closer look

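The interaction test (edgeR, FDR under 0.05) set the KO effect on footprints apart from that on RNA for 2 of the genes examined. Egr3 differed by 1.089 on the log2 scale: it was higher in footprints of KO and not in RNA. It kept the call with 1 block per genotype and replicate number, shared by both assays (FDR 0.0362; the labels do not say that these share a mouse), and lost it with the block within each assay (0.998), under DESeq2, with no low-count filter and without any 1 of the 12 libraries (FDR 0.0519 to 0.124). Its footprint values rest on 129 reads in WT and 168 in KO. The Mir181a-1 row differed by -7.804, at an FDR of 0.00463 or less without any 1 library; it is the row of a deleted gene.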

How the results depend on the processing

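Of the 8 genes, the number called in RNA-seq was 1 and became 0 under DESeq2, with no low-count filter, with the replicate block and without any 1 library (0 to 0). In footprints it was 2 and became 1 under DESeq2, 0 with no filter and 0 with the replicate block, and ranged from 0 (without KO replicate 2) to 2 without 1 library. For translation it was 0 in all 17 alternatives. The wider list gave 6 calls in RNA-seq, 3 under DESeq2, 0 with the replicate block, 11 in the joint fit and 1 without any 1 library (1 to 1). In footprints it gave 14, 6 with the replicate block and 7 to 11 without 1 library, the lowest without KO replicate 2. For translation it gave 1, and 0 under DESeq2, with no filter and with the replicate block within each assay. Without 1 library it gave 0 to 1, where the 1 was Hras without replicate 2 of RNA-seq WT or KO. Shares of all genes called were counted only for the main fits and the fits with a block. The other counts in this paragraph therefore have no baseline and are not read as results about these genes. Fits without 1 library also have fewer samples, and the cause of these shifts in the counts was not tested.

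In the adjusted counts, a WT and a KO library sharing a replicate number tended to lie on opposite sides of their group means. Whether they varied together before the adjustment cannot be told from these counts, so this is no reason to set the replicate block aside. For Rasgrp1 in footprints the SE was 0.03 without the block and 0.08 with it. With the replicate block the footprint difference of Sos1 turned from 0.0043 to -0.0011. Without 1 library, signs changed for differences that were not called: Sos1 ranged from -0.018 to 0.032 in footprints, in RNA-seq between -0.028 and 0.11, and for translation between -0.11 and 0.023. Nras ranged from -0.11 to 0.067 in RNA-seq and Spred1 from -0.013 to 0.11 in footprints. For translation Rasgrp1 ranged from -0.047 to 0.077, Map2k1 from -0.054 to 0.018 and Spry1 from -0.059 to 0.66. Spry1 and Spry2 had the fewest reads of the 8 genes, 52 to 108 per genotype and assay; the part of depth in their results was not tested.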
